A study of Mus musculus with 12 samples.

Results

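Fibromodulin (Fmod) and 7 other small leucine-rich proteoglycans (SLRPs) were followed, together with 2 transporters of meningeal fibroblasts, in mouse spinal cord white matter before and after a demyelinating injury at 2 ages. The 10 genes were Dcn, Bgn, Aspn, Fmod, Lum, Prelp, Omd, Ogn, Slc6a13 and Slc13a4, out of 46078 genes in the count table, and each was found there by its Ensembl identifier. Fmod was chosen by its measured response to injury, which differed between the ages, in the contrast that subtracts the injury effect in young mice from that in middle-aged mice. Values of this contrast are therefore given as a description for all 10 genes, and no test of Fmod is given in any comparison. The other 9 genes were chosen as relatives of Fmod by family or as meningeal genes, with earlier results of these data known.

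SLRPs are secreted proteins with a core of leucine-rich repeats, which bind collagen fibrils, set their spacing and bind growth factors of the TGF-beta family. Class I holds decorin (Dcn), biglycan (Bgn) and asporin (Aspn), class II holds fibromodulin, lumican (Lum), prolargin (Prelp) and osteomodulin (Omd), and class III holds osteoglycin (Ogn, also called mimecan). In the central nervous system these proteins are best known from the fibroblasts of the meninges and blood vessels and from the fibrotic part of a scar. Slc6a13, a transporter of GABA and taurine, and Slc13a4, a sulfate transporter, are used as markers of meningeal fibroblasts.

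The groups allow the change in white matter after a demyelinating injury to be compared between ages. C57Bl6 mice that were young (6 weeks) or middle-aged (8 months) were either naïve or studied 72 h after lysolecithin, a detergent-like lipid that strips myelin, had been injected into ventrolateral spinal cord white matter. Each group had 3 pools of RNA, each from 5 mice, cut by laser from cresyl violet-stained sections and amplified during library preparation. The naïve groups had no injection, so the effects of the needle and of the toxin cannot be told apart, and "injury" below means both. The p-values come from tests that set each group difference against the spread between these pools, not between single mice.

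Library totals were 9834447 to 12807437 counts over the 12 pools, and values are counts per 1000000 (CPM) after scaling by trimmed mean of M-values (TMM) unless raw counts are named. All 10 genes were among the 15866 that passed the filter on low counts. Oligodendrocyte markers summed to 83480 to 97425 CPM in young naïve pools and 50693 to 58011 CPM in middle-aged naïve pools. They summed to 18021 to 20015 CPM in young injured pools and 7630 to 12186 CPM in middle-aged injured pools. Neuron markers (Rbfox3, Snap25, Syt1, Slc17a6) were present too, at 681 to 1976 CPM in young naïve pools and 1167 to 1239 CPM in middle-aged naïve pools.

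The promoters of 3 genes are shown because Fmod and Prelp lie side by side on chromosome 1 and had the narrowest range of the difference in injury effect among the 10 genes over the processing settings tried, while Bgn rose at both ages, by 2.18 and 2.37 on the log2 scale. Each line gives the 250 bases before the transcription start, 5′ to 3′ on the gene's own strand, from RefSeq on GRCm38.p6, with capitals marking matches on either strand to an E box (CANNTG), a SMAD element (CAGAC) or a CCAAT box (CCAAT).
Fmod, chr1:134037004-134037253, plus strand: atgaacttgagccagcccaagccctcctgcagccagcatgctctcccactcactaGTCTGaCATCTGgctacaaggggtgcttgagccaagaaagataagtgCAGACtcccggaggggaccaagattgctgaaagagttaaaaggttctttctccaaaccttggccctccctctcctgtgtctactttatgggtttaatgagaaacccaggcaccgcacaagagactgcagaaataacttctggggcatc
Prelp, chr1:133921402-133921651, minus strand: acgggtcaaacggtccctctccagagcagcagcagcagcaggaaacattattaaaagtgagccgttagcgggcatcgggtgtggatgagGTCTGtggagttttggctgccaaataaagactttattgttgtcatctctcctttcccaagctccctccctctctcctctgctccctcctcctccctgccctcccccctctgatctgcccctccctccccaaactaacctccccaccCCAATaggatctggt
Bgn, chrX:73483351-73483600, plus strand: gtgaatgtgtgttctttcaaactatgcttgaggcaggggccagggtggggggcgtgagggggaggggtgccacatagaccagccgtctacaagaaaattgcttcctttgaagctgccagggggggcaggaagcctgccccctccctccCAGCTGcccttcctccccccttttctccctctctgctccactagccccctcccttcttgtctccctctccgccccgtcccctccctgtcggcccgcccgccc
Fmod held 1 E box and 2 SMAD elements, Prelp held 1 SMAD element and 1 CCAAT box, and Bgn held 1 E box. Of 32851 mouse promoters of this length, 66.2% held an E box, 42.2% a SMAD element and 33.8% a CCAAT box. None of these 3 windows held a TATA box (TATAAA, in 12.4% of promoters) or a forkhead element (GTAAACA, in 3.17%). The matches are descriptions of letters, and 8 of the 10 genes had an entry in the promoter table.

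Several of the genes sit in clusters on the GRCm38 assembly. Prelp (chr1:133910304-133921414, minus strand) and Fmod (chr1:134037254-134048277, plus strand) point away from each other across 115839 bases. Dcn (chr10:97479609-97518143) and Lum (chr10:97565128-97572703) lie 46984 bases apart on the plus strand. Aspn (chr13:49544443-49567565), Omd (chr13:49582462-49592822) and Ogn (chr13:49608046-49624501) follow each other on the plus strand, with gaps of 14896 and 15223 bases. Bgn is at chrX:73483602-73495933, Slc6a13 at chr6:121300227-121337733, both on the plus strand, and Slc13a4 at chr6:35267957-35308131 on the minus strand. Dcn and Lum were called in the same comparisons: both were higher after injury at each age, and neither passed a test of age. Aspn and Omd passed the test in no comparison and Ogn in 1, which does not show that their effects differ.

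Prelp shares 350 exonic bases with the antisense gene Gm15851, which had 5 to 25 counts per pool against 133 to 400 for Prelp. Aspn shares 7 with Cenpp, which had 93 to 310 counts. Whether reads were counted by strand is not given in the sources used here, so reads in these shared bases cannot be assigned with certainty.

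A pair of pools stood apart in some meningeal genes, and 1 of them over all genes too. Chi-square per degree of freedom measures how far 2 pools differ relative to counting noise. Over all genes it was 35.7 and 32.7 between middle-aged naïve replicate 2 and replicates 1 and 3, against 12.4 between those. Among young injured pools it was 7.48 and 7.65 for replicate 1, against 9.09 between the others. The share of all genes highest in each pool is not given here. Of the 14 listed markers of the leptomeninges, 9 were highest of their group in middle-aged naïve replicate 2 and 2 (Zic1 and Lama1) were lowest there, while 13 were highest of their group in young injured replicate 1, all but Mgp. Middle-aged naïve replicate 2 had 268 counts of Aldh1a2, a retinoic acid-synthesising enzyme of the leptomeninges, against 2 and 1 in the other pools of its group. Slc22a6, an organic anion transporter of the meninges, had 29 counts there and 0 in both others. Of the 10 genes, Slc13a4 was 5.64 times, Omd 5.25 times, Ogn 3.99 times and Slc6a13 2.14 times the higher of the other 2 pools there, Dcn was 1.66 times and Fmod 1.23 times. Prelp was 0.941 times, Lum 0.627 times, Bgn 0.358 times and Aspn 0.0796 times that pool.

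Young injured replicate 1 had 143 counts of Slc13a4 against 18 and 15, which is 7.52 times the higher of the others in CPM. It also had 24 counts of Crabp2, a retinoic acid carrier, against 4 and 7, and 54 counts of Foxc2, a transcription factor of the meninges, against 11 and 7. Ogn was 2.22 times, Omd 1.97 times and Slc6a13 1.94 times the higher of the other 2 pools there. Aspn was 1.78 times, Bgn 1.42 times, Lum 1.08 times, Dcn and Prelp each 1.06 times and Fmod 1.05 times that pool. So every SLRP and transporter described was highest of its group there, by a small margin for Lum, Dcn, Prelp and Fmod. Aldh1a2 was 1.21 times the higher of the others. In the plot of these genes, Fmod lacks the isolated high pool that Slc13a4, Slc22a6 and Foxc2 have. Results that rest on either pool are given with and without them, which is an alternative chosen after the data were seen.

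**Figure D1:**
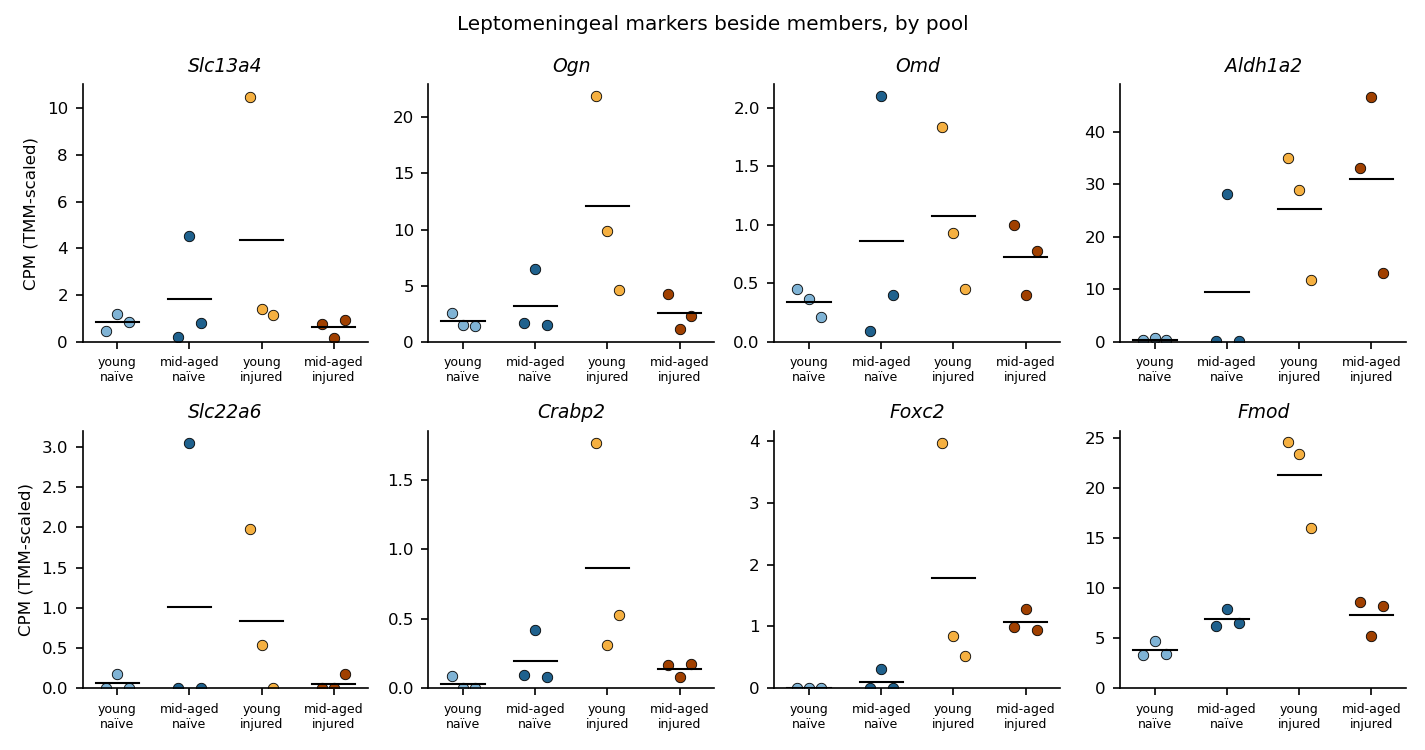
CPM (y axis, linear, TMM-scaled) in the 12 pools for 4 of the genes described and for Aldh1a2, Slc22a6, Crabp2 and Foxc2 (leptomeninges); points are replicates 1 to 3 from left to right and lines are group means. Middle-aged naïve replicate 2 is the high pool for Slc13a4 (4.51 CPM), Omd, Aldh1a2 and Slc22a6, and young injured replicate 1 for Slc13a4 (10.5 CPM), Ogn and Foxc2, while Fmod has no isolated pool.

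Fmod was 5.54-fold higher in injured than in naïve young mice, and 1.07-fold higher in injured than in naïve middle-aged mice. Young naïve pools had 3.37, 4.71 and 3.44 CPM and young injured pools had 24.7, 23.4 and 16.04 CPM, with no overlap. Middle-aged naïve pools had 6.24, 7.97 and 6.48 CPM and middle-aged injured pools had 8.63, 5.27 and 8.20 CPM, which overlap. The order of the group means was young injured (21.4 ± 4.66 CPM, SD, n = 3), middle-aged injured (7.37 ± 1.83), middle-aged naïve (6.90 ± 0.940) and young naïve (3.84 ± 0.756). Only the 2 middle-aged groups, next to each other in this order, overlapped.

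As log2 fold changes, the injury effect on Fmod was 2.47 (SE 0.26) in young mice and 0.10 (SE 0.25) in middle-aged mice. The age effect, middle-aged over young, was 0.84 (SE 0.26) in naïve mice and -1.54 (SE 0.24) in injured mice, so the sign of the age difference turned between the 2 states. The contrast that chose Fmod was -2.37 (SE 0.36), and 198 of the 15866 genes had a value at or below it. At an adjusted p of 0.05, 22 genes (0.139%) were called in that contrast, 0.0567% higher and 0.0819% lower, which is given as background only, as this contrast chose Fmod. The genes nearest to the threshold were Ust (1.33) and Col16a1 (-1.65) inside it and Ccna2 (1.57) and Gm4951 (-4.41) outside it. With both pools that stood apart left out, the value for Fmod was -2.14. In such bulk tissue, fewer cells of a type and less RNA per cell cannot be told apart.

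**Figure D2:**
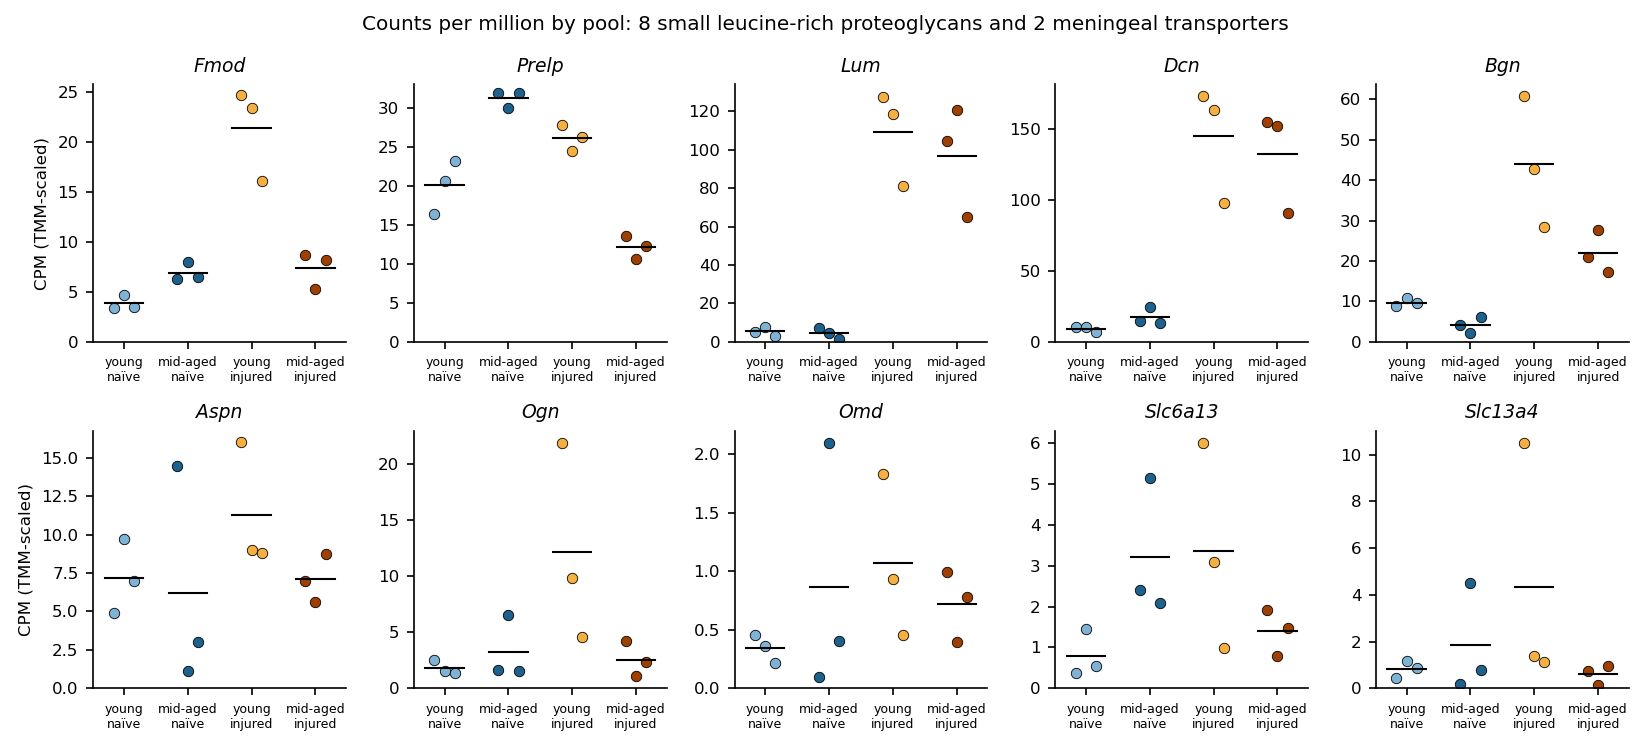
CPM (y axis, linear, TMM-scaled, a separate scale for each gene) in each pool for the 10 genes; points are replicates 1 to 3 from left to right and the line is the group mean. Lum and Dcn are high in every injured pool at both ages, Fmod is high in the 3 young injured pools alone (16.04 to 24.7 CPM), and Prelp is lowest in the 3 middle-aged injured pools (10.6 to 13.6 CPM).

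In young mice, 5 of the 9 other genes were higher after injury and none was lower (edgeR quasi-likelihood test, adjusted p under 0.05 over all genes tested). At an unadjusted p under 0.05, or by DESeq2, the number lower was also 0. Over all genes 54.6% were called in this comparison, 28.3% higher and 26.3% lower. The 5 were Dcn, Bgn, Lum, Ogn and Slc6a13, and the median log2 fold change of the 9 was 2.18 against 0.00054 over all genes tested. In middle-aged mice, 3 of the 9 were higher (Dcn, Bgn, Lum) and 1 was lower (Prelp), where 58.5% of all genes were called, 29.2% higher and 29.3% lower. The median of the 9 was -0.21 there, against -0.032 over all genes. The direct effect of age was called for Prelp alone in each state, where 3.8% of all genes were called in naïve mice (2.02% higher and 1.78% lower in middle-aged mice) and 1.15% in injured mice (0.24% and 0.908%).

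Decorin, which binds collagen and TGF-beta, had the second largest injury effect in young mice. Dcn was at 10.4, 10.4 and 6.67 CPM in young naïve pools and 173, 163 and 98.0 CPM in young injured pools. It was at 14.7, 24.3 and 13.04 CPM in middle-aged naïve pools and 155, 152 and 90.9 CPM in middle-aged injured pools. Every injured pool was above every naïve pool at both ages, as did 35% of all genes at the younger and 31.5% at the older age (32.2% and 29.7% had the reverse). The log2 fold change was 3.97 (SE 0.31, edgeR adjusted p = 1.01e-07) in young mice and 2.94 (SE 0.29, adjusted p = 9.51e-07) in middle-aged mice.

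Lumican, which regulates collagen fibril assembly, rose at both ages. Lum was at 5.28, 7.98 and 2.90 CPM in young naïve pools and 128, 119 and 81.4 CPM after injury. In middle-aged mice it was at 7.20, 4.51 and 1.60 CPM in naïve pools and 105, 121 and 65.1 CPM in injured pools. The groups did not overlap at either age, with log2 fold changes of 4.32 (SE 0.42, edgeR adjusted p = 8.91e-07) and 4.47 (SE 0.43, adjusted p = 6.78e-07). These are 20.02-fold and 22.2-fold, the highest among the 10 genes.

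Between the 2 injured groups, neither Dcn (-0.13, SE 0.26, edgeR adjusted p = 0.995) nor Lum (-0.17, SE 0.35, adjusted p = 0.995) passed the test of age. In naïve mice the log2 age effect was 0.91 (SE 0.30, adjusted p = 0.122) for Dcn and -0.32 (SE 0.46, adjusted p = 0.762) for Lum. The 3 middle-aged naïve pools were all above the young naïve pools for Dcn, as for 7.77% of all genes, while those for Lum overlapped. Middle-aged minus young, the difference of injury effects was -1.03 (SE 0.40) for Dcn and 0.15 (SE 0.57) for Lum, and that for Dcn was -0.56 without the 2 pools that stood apart.

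Biglycan, a ligand of Toll-like receptors when it is released from matrix, rose at both ages. Bgn was at 8.84, 10.8 and 9.57 CPM in young naïve pools and 60.8, 42.9 and 28.5 CPM in young injured pools. It was at 4.13, 2.20 and 6.16 CPM in middle-aged naïve pools and 20.9, 27.6 and 17.2 CPM in middle-aged injured pools. Middle-aged pools were below young pools in both states with no overlap. The injury effect was 2.18 (SE 0.32, edgeR adjusted p = 4.70e-05) in young mice and 2.37 (SE 0.34, adjusted p = 3.17e-05) in middle-aged mice on the log2 scale.

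The log2 effect of age on Bgn was -1.20 (SE 0.34, edgeR adjusted p = 0.0707) in naïve mice and -1.01 (SE 0.30, adjusted p = 0.159) in injured mice, and neither passed the test. The naïve effect passed in 3 of 20 settings: by DESeq2, with no filter on low counts and without middle-aged naïve replicate 3 (-1.61). The injured effect also passed in 3: with no filter, with only the pools compared and without middle-aged naïve replicate 2 (-1.01). That pool enters the comparison of injured mice through the shared spread alone. Over all genes, 9.34% had middle-aged pools all below young pools in naïve mice and 12.2% in injured mice (11.1% had them all above). The difference of injury effects was 0.19 (SE 0.45).

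Asporin, a class I protein without a glycosaminoglycan attachment site, was called in none of the 4 comparisons. Aspn was at 4.92, 9.70 and 6.99 CPM in young naïve pools, 14.5, 1.15 and 3.04 CPM in middle-aged naïve pools, 16.002, 8.99 and 8.81 CPM in young injured pools, and 6.97, 5.59 and 8.72 CPM in middle-aged injured pools. The middle-aged naïve pools ran from the lowest value to the second highest of all 12. The log2 injury effect was 0.65 (SE 0.58, edgeR adjusted p = 0.375) in young mice and 0.19 (SE 0.60, adjusted p = 0.807) in middle-aged mice. Without middle-aged naïve replicate 1 the latter was 1.71 and passed the test (adjusted p = 0.00457). The difference of injury effects was -0.46 (SE 0.84).

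Prolargin, which anchors basement membranes to collagen, was lower after injury in middle-aged mice. Prelp was at 16.4, 20.7 and 23.2 CPM in young naïve pools and 27.9, 24.6 and 26.3 CPM in young injured pools. It was at 32.0, 30.1 and 32.0 CPM in middle-aged naïve pools and 13.6, 10.6 and 12.3 CPM in middle-aged injured pools. No 2 groups overlapped, and every young injured pool was above the young naïve pools while every middle-aged injured pool was below the middle-aged naïve pools, as for 0.0882% of all genes.

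In middle-aged mice Prelp fell by 1.36 on the log2 scale (SE 0.17, edgeR adjusted p = 6.92e-06), which is 2.57-fold lower. In young mice the log2 fold change was 0.39 (SE 0.16, adjusted p = 0.0572), which did not pass but did in 5 of the 20 processing settings tried. In injured mice Prelp was lower with age, at -1.11 (SE 0.17, adjusted p = 0.00517), in all 20. In naïve mice it was higher with age, at 0.64 (SE 0.16, adjusted p = 0.0428), and that call was lost in 14 of the 20, of which 10 left out 1 pool. Its difference of injury effects was -1.75 (SE 0.23), beside -2.37 for its neighbour Fmod. Without the 2 pools that stood apart, the change in middle-aged mice was -1.39 and the difference -1.73.

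**Figure D3:**
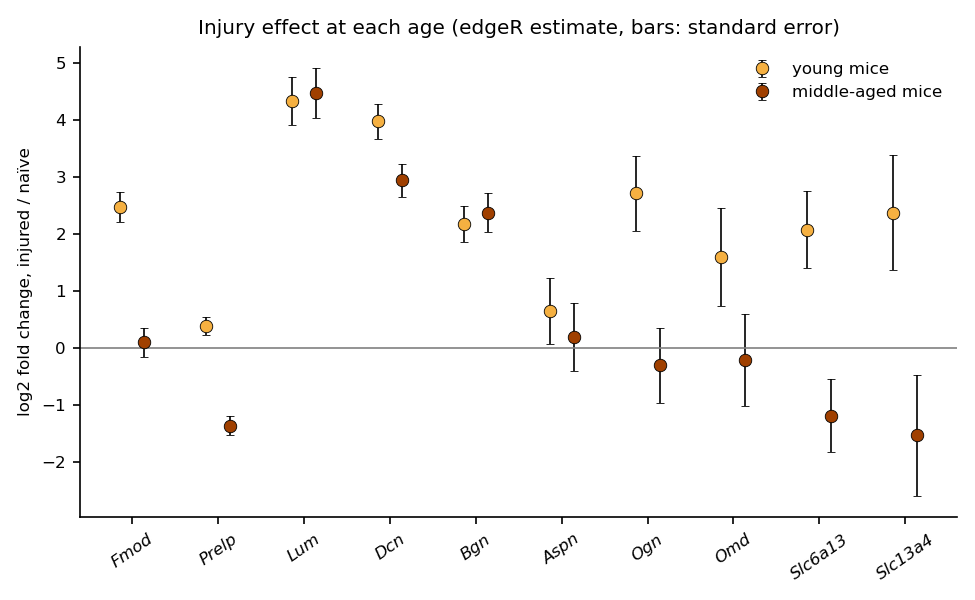
Injury effect on each gene (y axis, log2 fold change of injured over naïve, edgeR estimate) in young and middle-aged mice. Bars are approximate standard errors derived from the edgeR F statistic. Lum, Dcn and Bgn lie above 0 at both ages, Fmod lies at 2.47 in young and 0.10 in middle-aged mice, and Prelp at 0.39 and -1.36.

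Osteoglycin, the class III gene among the 10, rose in young lesions. Ogn had 28, 17 and 13 counts in young naïve pools and 298, 127 and 61 in young injured pools, or 2.55, 1.54 and 1.40 CPM against 21.9, 9.84 and 4.59 CPM. The 2 groups did not overlap and the log2 fold change was 2.71 (SE 0.66, edgeR adjusted p = 0.00298). The call was kept in all 20 settings, at 1.97 without the 2 pools that stood apart. In middle-aged mice Ogn was at 1.63, 6.51 and 1.52 CPM in naïve pools and 4.23, 1.12 and 2.33 CPM in injured pools, with a log2 fold change of -0.31 (SE 0.66, adjusted p = 0.711).

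Without middle-aged naïve replicate 2, the middle-aged injury effect on Ogn was 0.70. The age effect in injured mice was -2.24 (SE 0.63, edgeR adjusted p = 0.126) with no overlap; it passed in 4 of 20 settings, and 12.2% of all genes had such a gap in that direction. The difference of injury effects was -3.02 (SE 0.93), and -1.27 with both pools left out.

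Osteomodulin, better known from bone, was the scarcest of the 8 SLRP genes among the 10. Omd had 5, 4 and 2 counts in young naïve pools, 25, 12 and 6 in young injured pools, 1, 20 and 5 in middle-aged naïve pools and 12, 5 and 9 in middle-aged injured pools. The single count of middle-aged naïve replicate 1 allows 0.0024 to 0.520 CPM before TMM scaling (exact binomial 95% interval, which covers counting error only, as amplified reads are not independent molecules). The log2 injury effect was 1.59 (SE 0.86, edgeR adjusted p = 0.133) in young mice and -0.21 (SE 0.81, adjusted p = 0.837) in middle-aged mice. None of the 4 comparisons passed for Omd, but that in young mice passed (adjusted p = 0.0496) without middle-aged naïve replicate 2. The difference of injury effects was -1.81 (SE 1.18), and 0.49 without the 2 pools that stood apart.

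Of the transporters, Slc6a13 was called higher in young lesions. It had 4, 16 and 5 counts in young naïve pools and 82, 40 and 13 in young injured pools, or 0.364, 1.45 and 0.538 CPM against 6.02, 3.10 and 0.979 CPM, which overlap. The log2 fold change was 2.08 (SE 0.68, edgeR adjusted p = 0.0176). The call was lost without young naïve replicate 1 or 3, without young injured replicate 1, and without both pools that stood apart, at 1.35 to 2.89 over all settings. In middle-aged mice the pools were at 2.40, 5.14 and 2.08 CPM when naïve and 1.91, 0.799 and 1.47 CPM when injured. Here every injured pool was below every naïve pool, as for 29.7% of all genes, but the log2 fold change of -1.19 (SE 0.64, adjusted p = 0.123) did not pass.

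Slc13a4 had 5, 13 and 8 counts in young naïve pools, 143, 18 and 15 in young injured pools, 2, 43 and 10 in middle-aged naïve pools and 9, 2 and 11 in middle-aged injured pools. The log2 injury effect in young mice was 2.37 (SE 1.004, edgeR adjusted p = 0.0589), which passed in 8 of 20 settings, and it was 0.60 without young injured replicate 1. In middle-aged mice it was -1.53 (SE 1.06, adjusted p = 0.230), and 0.26 without middle-aged naïve replicate 2. The difference of injury effects was -3.91 (SE 1.46) for Slc13a4 and -3.27 (SE 0.93) for Slc6a13. With both pools left out these were -0.34 and -2.03, so for Slc13a4 the value rested on those pools.

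Per kilobase of exon, the make-up of SLRP transcripts changed with injury. Summed over the 8 SLRPs, levels were 14.2 to 18.8 CPM per kb in young naïve pools, 16.8 to 23.7 in middle-aged naïve pools, 72.6 to 123 in young injured pools and 55.8 to 87.4 in middle-aged injured pools. Prelp was the most abundant in both naïve groups, at 5.56 ± 0.954 CPM per kb in young and 8.68 ± 0.299 in middle-aged mice (SD, n = 3). Lum was the most abundant in both injured groups, at 44.6 ± 10.03 and 39.5 ± 11.7 CPM per kb, followed by Dcn at 24.8 ± 6.97 and 22.7 ± 6.17.

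As shares of the sum, Prelp went from a median of 31.9% (young naïve) and 39.5% (middle-aged naïve) to 6.45% and 4.48% after injury. Lum went from 15.2% and 8.75% to 45.8% and 50.8%. Fmod held 6.95% to 7.57% in young naïve pools and 6.06% to 6.72% in young injured pools. In middle-aged mice it held 7.96% to 11.7% in naïve pools and 1.82% to 4.44% in injured pools. A share depends on all 8 genes, so the fall of Prelp's share in young lesions stands beside a level that did not fall.

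**Figure D4:**
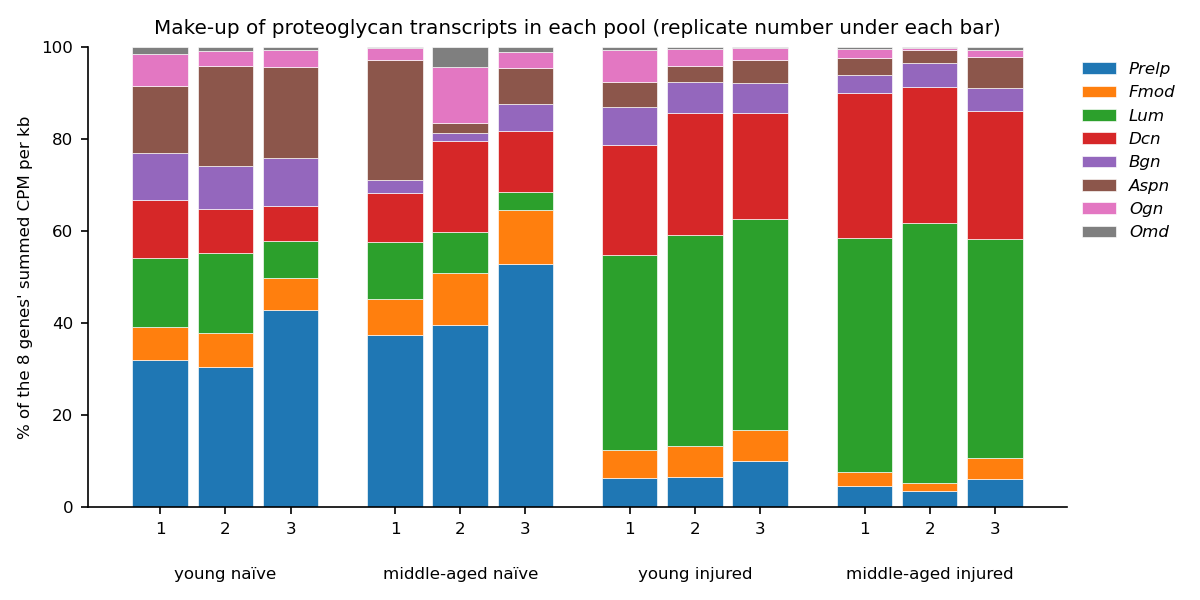
Share of each of the 8 SLRPs in their summed level (y axis, percent of summed CPM per kb) in each of the 12 pools, stacked to 100%. Prelp is the largest part of every naïve pool and Lum of every injured pool, and the Fmod part is between 6.06% and 6.72% in young injured pools and between 1.82% and 4.44% in middle-aged injured pools.

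The ratio of Fmod to Lum, both class II, was steady among young injured pools at 0.143 to 0.146 per kb. In middle-aged injured pools it was 0.0323 to 0.0933, below every young injured pool. In naïve pools it was 0.438 to 0.878 in young mice and 0.642 to 3.00 in middle-aged mice. Since Fmod was picked for its difference between ages, this ratio is a description of the same difference against Lum.

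Patterns over the 12 pools were compared as the root mean square difference of centred log2 CPM, in which a smaller value means a closer pattern. Among all tested genes, those nearest to Fmod were Slc7a11 (0.414), the cystine transporter, Myl9 (0.454), a myosin light chain, Nfkbid (0.464), Phldb2 (0.472) and Zic4 (0.472), where the median over all genes was 1.03. Nearest to Dcn were Tm4sf1 (0.254), Tor4a (0.265), Hacd4 (0.282), Ctsh (0.288) and Clic1 (0.296), against a median of 1.81. For Slc6a13 the nearest named here were further off, with Slc44a3 at 0.669, Gm15516 at 0.685, and Lrrn4cl and Ranbp3l both at 0.688, against a median of 1.17. Within the 10 genes, the closest pairs were Fmod with Ogn (0.648), Omd with Ogn (0.722), Ogn with Slc13a4 (0.778) and Fmod with Slc6a13 (0.791), and Dcn was closest to Lum (0.815). All these patterns share the same 12 libraries.

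Other SLRP genes were mostly scarce, Ecm2 aside. Of 9 listed (Kera, Epyc, Optc, Chad, Nyx, Tsku, Podn, Podnl1, Ecm2), only Tsku and Ecm2 passed the filter on low counts. Ecm2, which lies next to Aspn at a gap of 11653 bases, had 168, 218 and 250 counts in young naïve pools, 119, 82 and 97 in young injured pools, 364, 335 and 218 in middle-aged naïve pools and 69, 39 and 50 in middle-aged injured pools. It was lower after injury at both ages, at -1.46 (SE 0.30, edgeR adjusted p = 0.000853) in young and -2.73 (SE 0.32, adjusted p = 4.37e-06) in middle-aged mice on the log2 scale. Tsku was called higher in young lesions at 1.56 (SE 0.60, adjusted p = 0.0415), a call that was lost on leaving out 9 of the 12 pools in turn.

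Fibrillar collagens and other fibroblast matrix genes rose with Lum and Dcn. In young mice all 14 listed genes were higher after injury, with a median log2 fold change of 3.21. In middle-aged mice 11 were higher and none lower, with a median of 2.40, and Col6a2, Fbln1 and Pcolce did not pass. Over all genes tested, 28.3% were higher and 26.3% lower in young lesions, and 29.2% and 29.3% in middle-aged lesions. These shares are the background for the injury effects of the lists below too. Col3a1, the chain of type III collagen, had a log2 injury effect of 5.49 (SE 0.38, edgeR adjusted p = 2.87e-08) in young and 5.65 (SE 0.40, adjusted p = 2.72e-08) in middle-aged mice. Col1a1, a chain of type I collagen, had 5.06 (SE 0.41) and 4.46 (SE 0.45).

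Between the injured groups, Col1a1 (-1.92, SE 0.33, edgeR adjusted p = 0.0107) and Col1a2 (-1.46, SE 0.26, adjusted p = 0.0133) were lower in middle-aged mice, 2 of the 14. Neither was called without young injured replicate 1, young injured replicate 2 or middle-aged injured replicate 1. Over all genes 0.908% were called lower and 0.24% higher in this comparison. At an unadjusted p under 0.05, 10 of the 14 were lower and 0 higher, and the median log2 age effect of the 14 was -0.88. By DESeq2, 4 were lower and 0 higher, where 305 of all genes were lower and 141 higher. Summed over the list, levels were 897 to 1388 CPM in young injured pools and 322 to 725 CPM in middle-aged injured pools, with no overlap. In naïve mice only Col5a1 passed (1.68, SE 0.42, adjusted p = 0.041), and its call was lost in 10 of 20 settings.

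Leptomeningeal markers were called less uniformly. Of 14 listed, 10 were tested, and 8 were higher and none lower in young lesions. In middle-aged lesions 5 were higher (Cdh1, Foxc1, Foxc2, Mgp, Zic1) and 2 lower (Igf2, Slc6a20a), and the number called higher was 3 without middle-aged injured replicate 2. The summed list was at 50.7 to 71.3 CPM in young naïve, 40.97 to 124 in middle-aged naïve, 114 to 250 in young injured and 64.3 to 102 CPM in middle-aged injured pools. The young injured pools were all above the middle-aged injured pools in this sum. They were so for Fmod, Bgn, Aspn, Prelp, Ogn and Slc13a4 too, and for 12.2% of all genes. Of these named genes only Prelp passed the edgeR test of age in injured mice, and Fmod, chosen for its difference between ages, was not tested. The part of leptomeningeal tissue in the results for these genes was not tested.

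Among those markers, Mgp, an inhibitor of calcification, rose by 3.30 (SE 0.45, edgeR adjusted p = 2.20e-05) in young and 2.70 (SE 0.45, adjusted p = 0.000122) in middle-aged lesions on the log2 scale. Foxc1, a transcription factor needed for meningeal development, had 88, 84 and 60 counts in young naïve pools and 399, 314 and 191 in young injured pools. In middle-aged mice it had 100, 61 and 71 counts in naïve pools and 165, 161 and 119 in injured pools. Igf2, a growth factor made by leptomeningeal cells, was higher in young lesions at 1.43 (SE 0.32, adjusted p = 0.00166) and lower in middle-aged lesions at -1.48 (SE 0.33, adjusted p = 0.00155). It was highest of its group in both pools that stood apart. Middle-aged naïve replicate 2 had 62.5 CPM against at most 33.5 CPM in its group, and young injured replicate 1 had 117 against at most 106 CPM. The values of Igf2 without these pools are not given here. Foxc2 had 0 counts in all young naïve pools, where the floor of 3 counts is 0.253 to 0.305 CPM before TMM scaling.

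Markers of other cell types also moved with injury. Myeloid markers rose at both ages, 6 of 6, from 71.8 to 102 CPM in summed level to 1373 to 1394 CPM in young mice and from 110 to 147 CPM to 1461 to 1950 CPM in middle-aged mice. Mural cell markers were mixed, with 5 of 10 higher and 3 lower in young lesions and 4 higher and 4 lower in middle-aged lesions. Tagln, a smooth muscle protein, rose by 4.28 (SE 0.27) and 3.17 (SE 0.24) on the log2 scale, with edgeR adjusted p = 9.74e-09 and 6.85e-08. Endothelial markers were 2 of 6 higher and 1 lower at each age, and the 1 called lower in young lesions, Ly6c1, lost its call in 10 of 20 settings.

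Astrocyte markers were lower for 4 of 5 at each age, and oligodendrocyte markers for 6 of 6. Neuron markers were lower for 2 of 4 in young lesions and 3 of 4 in middle-aged lesions, where Slc17a6 was higher. Among Schwann cell markers, Egr2, which myeloid cells also express, had 0 to 9 counts in naïve pools and 70 to 132 in injured pools and was called higher at both ages. The summed Schwann cell list was at 37.6, 9.53 and 6.25 CPM in young injured replicates 1, 2 and 3, and at 10.8 to 14.9 CPM in middle-aged injured pools. Young injured replicate 1 is 1 of the 2 pools that stood apart in meningeal genes, and it was high in this list too. The part of these cell types in the results for the SLRPs was not tested.

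Enzymes that build the glycosaminoglycan chains of SLRPs did not move as 1 group. Of 27 tested, 11 were higher and 6 lower in young lesions, with a median log2 fold change of 0.20. In middle-aged lesions 13 were higher and 4 lower, with a median of 0.40. Of all genes tested, 28.3% were higher and 26.3% lower in young lesions, and 29.2% and 29.3% in middle-aged lesions. B4galt1, a galactosyltransferase of keratan sulfate and other chains, rose by 4.02 (SE 0.23, edgeR adjusted p = 4.49e-09) and 3.98 (SE 0.23, adjusted p = 3.75e-09). Dse, the epimerase that makes dermatan sulfate, rose by 3.20 (SE 0.27) and 3.17 (SE 0.27), and Chst14, the dermatan sulfotransferase, by 1.95 (SE 0.35) and 2.50 (SE 0.36).

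Papss1, a synthase of the sulfate donor, fell by 0.88 (SE 0.13) in young and 0.86 (SE 0.13) in middle-aged lesions on the log2 scale. Ust, a uronyl sulfotransferase, was lower in middle-aged than in young naïve mice at -1.47 (SE 0.17, edgeR adjusted p = 0.000544). It was lower in young lesions at -0.70 (SE 0.17, adjusted p = 0.0025) and higher in middle-aged lesions at 0.63 (SE 0.17, adjusted p = 0.0056). Chst2 was the other gene of this list with an age effect in naïve mice, at -0.86 (SE 0.14, adjusted p = 0.00364). In injured mice edgeR called none of the 27 for age, with 1 higher and 2 lower at an unadjusted p under 0.05, and DESeq2 called 1 higher and 1 lower.

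Receptors and partners of SLRP core proteins rose for the most part. Of 14 tested, 10 were higher at each age, with 2 lower in young and 3 lower in middle-aged lesions. Tlr4, a Toll-like receptor that binds biglycan, rose by 4.62 (SE 0.47, edgeR adjusted p = 1.44e-06) in young and 4.70 (SE 0.46, adjusted p = 7.07e-07) in middle-aged lesions. Tgfb1, which decorin and fibromodulin bind as a protein, rose by 4.30 (SE 0.30) and 4.33 (SE 0.29), whereas Tgfb2 fell by 0.99 (SE 0.14) and 1.55 (SE 0.14). Bmp1, a protease that trims SLRP core proteins, rose by 1.90 (SE 0.27) and 1.21 (SE 0.26). With age, Tlr2 (1.01, SE 0.22) and Igf1r (1.06, SE 0.23) were higher in naïve mice, at edgeR adjusted p = 0.0224 and 0.0195, but Tlr2 lost its call in 4 settings and Igf1r in 3. Between the injured groups edgeR called none, with 1 higher and 1 lower at an unadjusted p under 0.05, and DESeq2 also called 1 in each direction.

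Transporters related to Slc6a13 and Slc13a4 were mostly lower after injury. Of 8 listed, 5 were tested, and 3 were lower and 1 higher at each age. Slc6a11, an astrocyte GABA transporter, fell by 1.72 (SE 0.24, edgeR adjusted p = 3.07e-05) in young and 1.74 (SE 0.25, adjusted p = 2.95e-05) in middle-aged lesions on the log2 scale. Slc6a6, the taurine transporter, rose by 0.73 (SE 0.13) and 0.90 (SE 0.13). For age, edgeR and DESeq2 called none of the 5 in either state, with 2 lower in naïve mice and 1 higher and 2 lower in injured mice at an unadjusted p under 0.05.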

How the data were processed

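RNA from laser-captured spinal cord white matter was amplified with the REPLI-g protocol and sequenced on an Illumina NextSeq500. The deposited values are raw read counts per Ensembl gene: per the labels and the study's methods, the authors used FastQC (0.11.4) for quality, TopHat (2.0.10) running Bowtie (1.1.2) for mapping to GRCm38, and featureCounts for counting. The annotation release and strand setting are not given in the sources used here. From these counts, 15866 of 46078 genes passed filterByExpr and were tested with the quasi-likelihood F test of edgeR (4.0.16, R 4.3.3), after TMM scaling, in 1 model with a coefficient for each of the 4 groups and Benjamini-Hochberg adjustment over all 15866. DESeq2 (1.42.0), which the study used, was an alternative. The edgeR steps were tried on simulated counts for injury in young mice alone, with the same dispersion for every gene. The other comparisons were not checked in this way.

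Symbols, positions and exon lengths came from GENCODE M21 (GRCm38). Replicate pairs of each group differed by more than sampling noise. Replicate numbers did not pair the pools: correlations of deviations between same-numbered pools ran from -0.11 to 0.15. Library totals were 9834447 to 12807437 counts, so the floor of 3 counts is 0.234 to 0.305 CPM.

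The members and gene lists were chosen with earlier results of these data known. Named genes were all 10 members, per list and comparison up to 3 called genes at each end of the log2 fold changes (mean log2 CPM of at least 1), and the 5 genes nearest in pattern to Fmod, Dcn and Slc6a13. Col6a2, Fbln1, Pcolce, Tsku, Bmp1, Egr2, Foxc2, Cdh1, Crabp2 and Slc22a6, the values of Foxc1, Igf2, Ust and Tlr2 outside that rule, and the genes nearest to the threshold (Col16a1, Ccna2, Gm4951), were named after their values were seen. Some genes that the rule names are not reported here.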

Additional observations from a re-analysis of the deposited data

Results flagged for a closer look

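For Prelp, the pools of the 2 ages separated in opposite directions after injury: the 3 young injured pools (24.6 to 27.9 CPM) were above the 3 young naïve pools (16.4 to 23.2 CPM), and the 3 middle-aged injured pools (10.6 to 13.6 CPM) were below the 3 middle-aged naïve pools (30.1 to 32.0 CPM). The difference, middle-aged minus young, was -1.75 on the log2 scale (SE 0.23), and no test of it is given, because the same contrast chose Fmod. Of all 15866 genes, 14 (0.0882%) separated in this way.

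Among the listed genes outside the 10, the injury effect differed between ages by the interaction term of the edgeR fit for Igf2, at -2.91 (SE 0.46, adjusted p = 0.0264), and for Ust, at 1.33 (SE 0.24, adjusted p = 0.0472). Over all genes 22 (0.139%) were called in this contrast. Ust was among the genes nearest to the threshold, where Ccna2 fell outside at an edgeR adjusted p of 0.0508. Neither interaction term was tried under other processing settings or without the pools that stood apart. The lists were chosen with earlier results of these data known, so both values are given as a description.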

How the results depend on the processing

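Up to 20 alternatives per result were run: library totals or relative log expression factors in place of TMM, DESeq2, no filter on low counts, at least 10 counts in 6 pools, a replicate block, only the pools compared, each of the 12 pools left out in turn, and, chosen after seeing the data, both pools with the most transporter counts left out together. The difference of injury effects for Fmod was -2.55 to -2.14 over all of them and -2.55 to -2.19 with 1 pool left out. For genes outside the 10, such as Igf2 and Ust, the difference of injury effects was not run under these alternatives.

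The number of the 9 other members called was 5 in young lesions, 4 to 8 with 1 pool left out and 8 without middle-aged naïve replicate 2. In middle-aged lesions it was 4, and 4 to 5 with 1 pool left out. For age in naïve mice it was 1, with 3 by DESeq2 (Dcn, Prelp, Bgn), 3 with no filter (Dcn, Slc6a13, Bgn), 0 with only the pools compared, 0 with both pools left out, and 0 to 1 with 1 pool left out. For age in injured mice it was 1, with 2 by DESeq2, 4 with no filter, 3 with only the pools compared, and 1 to 3 with 1 pool left out, of which 3 without middle-aged naïve replicate 2. Replicate numbers did not pair the pools. With the replicate block the 4 counts were 5, 4, 1 and 1, and the gene called for age in naïve mice was Dcn rather than Prelp.

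Over all genes, calls for age in naïve mice were 603, against 1085 by DESeq2, 1153 with no filter, 71 with only the pools compared and 261 to 800 with 1 pool left out. For age in injured mice they were 182, against 446, 437, 818 and 45 to 410. Library totals alone moved the median of all genes by 0.20 in young lesions and turned the split there from 4483 higher and 4177 lower to 5380 and 3236. The cause of these shifts was not tested.

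No member called in the analysis as reported changed direction under any alternative, and 18 of 220 checks of such calls fell short of the threshold. Of members not called, 29 checks changed sign, all on leaving out pools. Without middle-aged naïve replicate 2, age in naïve mice gave 0.26 for Aspn, -0.23 for Ogn, -0.42 for Omd and -0.69 for Slc13a4, and injury in middle-aged mice gave -0.28, 0.70, 1.45 and 0.26. With both pools left out the first set was 0.26, -0.23, -0.42 and -0.69 and the second -0.29, 0.70, 1.45 and 0.26, and age in injured mice gave 0.021 for Dcn and 0.065 for Omd. With 1 pool left out, the ranges were -1.74 to 0.26 (Aspn), -0.89 to 0.11 (Lum), -0.23 to 1.13 (Ogn), -0.42 to 1.77 (Omd) and -0.69 to 1.63 (Slc13a4) for age in naïve mice, -0.28 to 1.71 (Aspn), -0.88 to 0.70 (Ogn), -0.74 to 1.45 (Omd) and -2.06 to 0.26 (Slc13a4) for injury in middle-aged mice, and -0.33 to 0.098 (Dcn), -0.36 to 0.059 (Lum) and -0.92 to 0.074 (Omd) for age in injured mice.

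With 3 pools per group, low counts (Omd, with 1 to 25 counts per pool) limit the precision for those genes.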
